A study of Homo sapiens with 12 samples.

Results

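The late phase of EMT in A549 cells was described by a direct comparison of the libraries taken at 96 h of TGF-β treatment with those taken at 24 h. A549 is an established human lung adenocarcinoma cell line of epithelial origin, and TGF-β is the cytokine with which EMT was induced. The comparison used 8 of the 12 sequenced samples, which are 2 runs of each of 2 libraries per time point and give 4 of the 6 libraries of the series. The labels give the induction of EMT for every group, the 0 h libraries included, and the samples hold no culture kept for 24 or 96 h without TGF-β, so time in culture and treatment cannot be told apart here. They do not state that the libraries of one time point came from separate cultures, and p-values then measure only the spread between these libraries. The question is which miRNAs moved after the first day of the response, and in which loci they are encoded. Of 491 miRNAs tested with edgeR's quasi-likelihood test, 29 (5.91%) were called, that is, they passed both an adjusted p under 0.05 (Benjamini-Hochberg) and a log2-fold change of more than 1 in either direction. SE is the standard error of a log2-fold change. The level was higher at 96 h for 18 of them (3.67% of those tested) and lower for 11 (2.24%). By the fitted values, the rise was led by miR-1290, miR-3195, and miR-1246, and the fall by miR-33b-5p, miR-4455, and miR-486-3p. Below miR-1290, the order of the rises depends on single libraries. Without 24 h replicate 1, the log2-fold changes of miR-135b-5p (4.07) and miR-4792 (3.39) stood above those of miR-1246 (3.10) and miR-3195 (2.90). The order of the falls depends on single libraries: without 96 h replicate 1 miR-33b-5p was at −1.33, behind miR-7973, miR-486-3p, miR-4521, and miR-4455, and miR-4455 was called in 0 of the 4 fits that leave out 1 library.

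EMT is the passage of epithelial cells to a motile, mesenchymal state. A miRNA is cut from a hairpin precursor, enters an Argonaute protein, and guides it to messenger RNAs that pair with its seed, the bases 2 to 8 from the 5′ end, so that miRNAs with one seed can share targets. In epithelial cells the miR-200 family holds down ZEB1 and ZEB2, while the miR-29 family targets collagens and other matrix genes and the miR-143 and miR-145 pair is known from smooth muscle, where TGF-β induces it.

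Mature sequences of RefSeq, from a table with GRCh38.p14 positions, were matched to 23 of the 29 miRNAs, 14 of the 18 higher and 9 of the 11 lower. A pair of leading risers is shown first because the 2 overlap in sequence. miR-1290 and miR-1246 share 12 consecutive bases, given in capitals, the longest shared run among 253 pairs of these 23 sequences, for which the median was 4 bases. No other pair shared 8 or more.
miR-1290: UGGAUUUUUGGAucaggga
miR-1246: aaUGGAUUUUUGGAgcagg
The run starts at base 1 of miR-1290 and base 3 of miR-1246, so their seeds, GGAUUUU and AUGGAUU, are not the same. Of these entries miR-1246 is known to resemble a stretch of the U2 small nuclear RNA.

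The other short mature miRNAs that rose are shown because length set them apart from most tested miRNAs, and 2 strands of the MIR143 and MIR145 locus and 3 further risers of 20 bases or more follow, all with the seed in capitals.
miR-7704: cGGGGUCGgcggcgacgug
miR-4516: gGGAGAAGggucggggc
miR-4497: cUCCGGGAcggcugggc
miR-4443: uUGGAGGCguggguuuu
miR-143-3p: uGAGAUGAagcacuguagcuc
miR-145-5p: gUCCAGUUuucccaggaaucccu
miR-135b-5p: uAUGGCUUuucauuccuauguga
miR-495-3p: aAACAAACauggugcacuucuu
miR-889-3p: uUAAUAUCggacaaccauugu
In the first 3 of these, C and G make up 84.2%, 76.5%, and 82.4% of the bases, against a median of 47.6% over the 434 tested miRNAs with a sequence. The median over the 14 risers was 44.9%, and of the 21 tested miRNAs with 70% or more, 6 had a log2-fold change above 0, with a median of −0.56.

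Among the miRNAs that fell, miR-29b-3p and miR-33b-5p have tested relatives with the same seed, and these are shown beside them, followed by 2 fallers without one.
miR-29b-3p: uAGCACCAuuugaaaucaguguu
miR-29a-3p: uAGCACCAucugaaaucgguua
miR-29c-3p: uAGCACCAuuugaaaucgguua
miR-33b-5p: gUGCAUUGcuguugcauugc
miR-33a-5p: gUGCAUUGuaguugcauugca
miR-4521: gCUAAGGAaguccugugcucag
miR-138-5p: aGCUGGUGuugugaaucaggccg
The seed in capitals is identical within the miR-29 group and within the miR-33 pair. Among the 23 called miRNAs with a sequence, no other had a seed mate among the 434 tested miRNAs with a sequence.

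The 4 libraries held between 2545769 and 5971197 counts on mature miRNAs, with the 96 h libraries deeper than the 24 h libraries. Levels are given as CPM, counts scaled to one common library size, after TMM normalization, with factors of 1.06 and 1.02 for the 24 h and of 0.738 and 0.791 for the 96 h libraries. Over all tested miRNAs the log2-fold change had a median of −0.05, which became −0.49 when libraries were scaled by their total counts instead. With total counts, 72 miRNAs were called, 14 of them higher and 58 lower, and 4 risers, miR-944, miR-127-5p, miR-4443, and miR-889-3p, were no longer among them. All 29 had both 96 h libraries on one side of both 24 h libraries, as did 149 of all tested miRNAs in the upward direction (30.3%) and 155 in the downward direction (31.6%). With 2 libraries against 2, the smallest p that exact permutation (two-sided) allows for 1 miRNA is 0.333. In bulk RNA, a change in the number of cells that make a miRNA and a change in its amount per cell cannot be told apart.

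**Figure D1:**
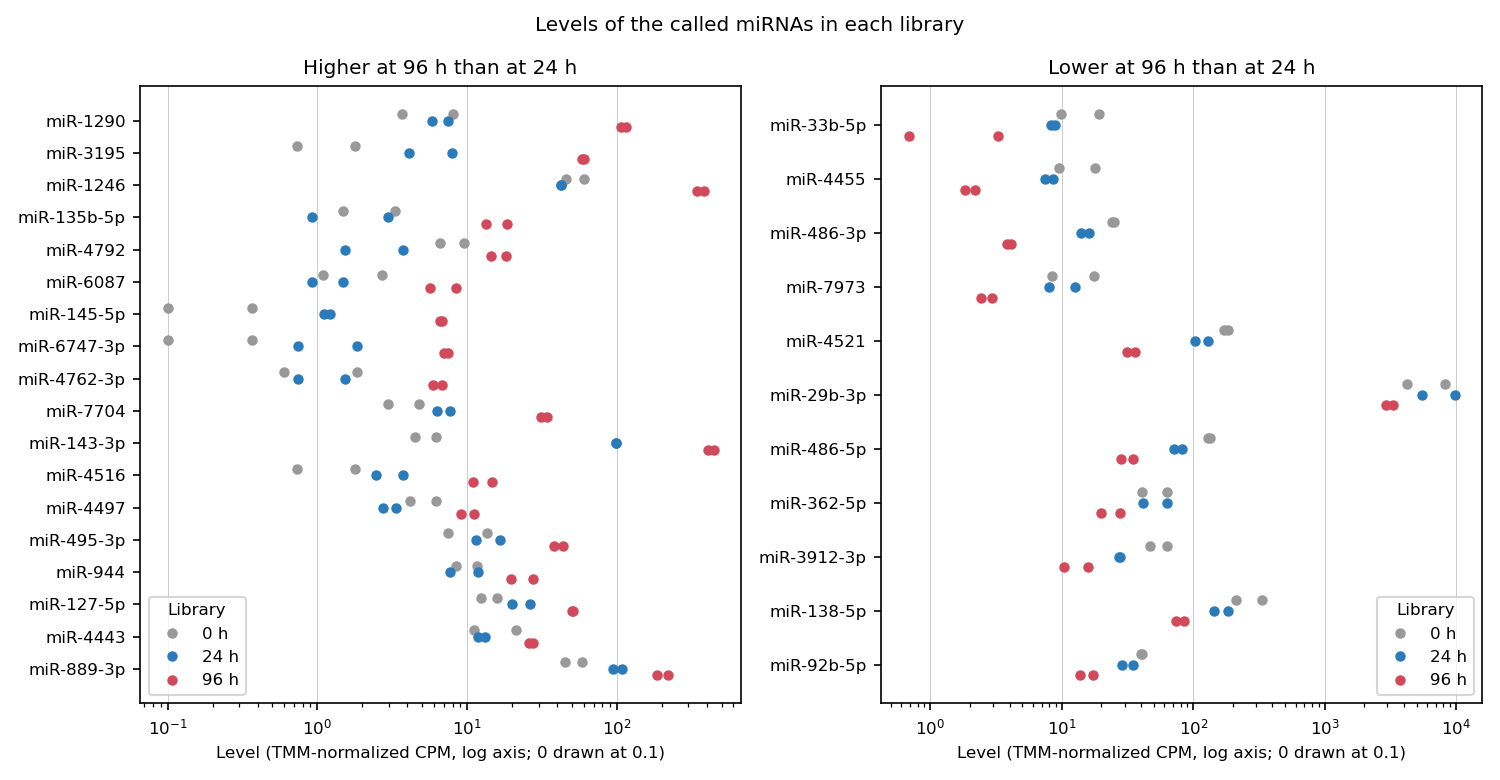
Level of each of the 29 called miRNAs in each library, in TMM-normalized CPM on a log axis, with 1 point per library and time points offset vertically; the 18 higher at 96 h are on the left and the 11 lower at 96 h on the right. In every row the 2 points at 96 h lie beyond both points at 24 h.

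miR-1290, whose precursor MIR1290 lies within an intron of ALDH4A1 (GRCh37, chromosome 1, 19223565 to 19223642), had 20 and 19 (24 h) and 504 and 396 (96 h) counts. Its level went from 6.63 ± 1.15 to 111 ± 4.92 CPM (mean ± SD over 2 libraries, as for the levels that follow), or a log2-fold change of 4.07 (SE 0.30, adjusted p = 1.98e-05), the largest of the 29. At 0 h it had 10 and 27 counts, and the early step from 0 to 24 h was 0.13. The related miR-1246, from chromosome 2 between 177465708 and 177465780, had 113 and 138 (24 h) and 1673 and 1269 (96 h) counts. This is a change from 42.2 ± 0.113 to 362 ± 25.1 CPM and a log2-fold change of 3.10 (SE 0.19, adjusted p = 6.55e-06). Both 24 h libraries of miR-1246 were below both 0 h libraries, with an early step of −0.33, and both 96 h libraries were far above all others.

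miR-3195 had 11 and 26 (24 h) and 257 and 223 (96 h) counts. Its level rose from 6.03 ± 2.73 to 59.4 ± 1.54 CPM, or log2 3.26 (SE 0.31, adjusted p = 0.000128). Over the fits that leave out 1 library, miR-3195 ran from 2.90 to 3.93. It was already called at 24 h, with an early step of 2.20 (SE 0.52, adjusted p = 0.0329) that rested on 2 and 6 counts at 0 h. miR-7704, from a hairpin in an exon of HOXD1 on chromosome 2 between 177053571 and 177053629, had 17 and 25 (24 h) and 151 and 115 (96 h) counts. Its log2-fold change was 2.21 (SE 0.29, adjusted p = 0.00130), and its level went from 6.99 ± 0.934 to 32.7 ± 2.17 CPM. It lies on the strand of HOXD1, so its reads and fragments of that transcript cannot be told apart. miR-4792, in an intron of a long non-coding RNA on chromosome 3 between 24562853 and 24562926, had 26 and 22 counts at 0 h and 10 and 5 (24 h) and 64 and 67 (96 h). It thus had its lowest values at 24 h, with an early step of −1.63 that was not called. The late step was 2.66 (SE 0.44, adjusted p = 0.00539) and ran from 2.20 to 3.39 when single libraries were left out.

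miR-143-3p was the most abundant of the 18 risers at 96 h. MIR143 and MIR145 lie 1623 bases apart on chromosome 5, the first between 148808481 and 148808586 in an exon of CARMN, a long non-coding RNA, and the second between 148810209 and 148810296 in one of its introns. In the late step miR-143-3p went from 98.9 ± 0.346 to 426 ± 24.4 CPM on 265 and 324 (24 h) and 1801 and 1634 (96 h) counts. The log2-fold change was 2.11 (SE 0.16, adjusted p = 2.23e-05), beside an early step of 4.22. From the same locus miR-145-5p had 3 and 4 (24 h) and 29 and 25 (96 h) counts, and its late log2-fold change was 2.47 (SE 0.59, adjusted p = 0.0245). The other strands were close to the limit of detection: miR-143-5p had 0 counts in both 24 h libraries and 14 and 7 at 96 h, and miR-145-3p had 1 and 0 and then 8 and 7. A count of 0 allows up to 3 counts, by counting error alone. Fibroblasts and muscle cells also make this pair, and whether such cells contributed here was not tested. None of 5 fibroblast miRNAs and none of 5 muscle miRNAs passed the expression filter, miR-214-3p and miR-214-5p were at 0 in all libraries, and the fibroblast miRNAs summed to between 0.372 and 4.31 CPM at 24 and 96 h.

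miR-135b-5p lies in an intron of LEMD1 on chromosome 1 between 205417430 and 205417526. It had 8 and 3 (24 h) and 81 and 49 (96 h) counts and a log2-fold change of 3.06 (SE 0.53, adjusted p = 0.00605). This value ran from 2.48 to 4.07 over the fits that leave out 1 library, the highest without 24 h replicate 1, and the call was lost without 96 h replicate 1 (adjusted p = 0.0581). miR-944 lies in an intron of TP63, a transcription factor of basal epithelium, on chromosome 3 between 189547711 and 189547798. It had 32 and 25 (24 h) and 87 and 101 (96 h) counts, and its level went from 9.78 ± 3.01 to 23.6 ± 5.41 CPM, or log2 1.28 (SE 0.32, adjusted p = 0.0288). miR-4443, also on chromosome 3 from 48238054 to 48238106, had 32 and 43 (24 h) and 115 and 102 (96 h) counts and the least extreme adjusted p of the risers, 0.0441 at a log2-fold change of 1.09.

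A further 5 risers were at low levels. miR-4516, opposite to PKD1 on chromosome 16 between 2183120 and 2183205, had 10 and 8 (24 h) and 48 and 54 (96 h) counts and a log2-fold change of 2.05. miR-4497, on chromosome 12 between 110271153 and 110271241, had 9 and 9 (24 h) and 40 and 41 (96 h) and 1.72. miR-4762-3p, in an intron of ATXN10 on chromosome 22 between 46156404 and 46156478, had 2 and 5 (24 h) and 26 and 25 (96 h) and 2.40. Counts at 24 h were therefore below 11 in all libraries of these 3. For miR-6087 the counts were 4 and 3 (24 h) and 25 and 31 (96 h) with a log2-fold change of 2.53, and for miR-6747-3p they were 2 and 6 (24 h) and 33 and 26 (96 h) with 2.42. The adjusted p of these 5 ran from 0.0197 to 0.0308. The expression filter asked for 2 libraries above its limit, and 6 risers, miR-135b-5p, miR-145-5p, miR-4516, miR-4762-3p, miR-6087, and miR-6747-3p, reached this number only with the 96 h libraries and could hardly have entered the test without being higher there. The other 12 risers and all 11 fallers met it without the 96 h libraries.

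Of the risers, 3 come from the imprinted cluster of miRNAs on chromosome 14q32, which is transcribed downstream of MEG3. miR-495-3p, in an intron of MEG8 from 101500092 to 101500173, had 31 and 54 (24 h) and 194 and 141 (96 h) counts and rose from 14.03 ± 3.52 to 41.1 ± 4.09 CPM, or log2 1.54 (SE 0.29, adjusted p = 0.0108). miR-127-5p, whose precursor MIR127 lies from 101349316 to 101349412 opposite to RTL1, had 54 and 86 (24 h) and 225 and 186 (96 h) counts and a log2-fold change of 1.12 (SE 0.22, adjusted p = 0.0136). Its other strand miR-127-3p, which is far more abundant, moved by 0.85 (SE 0.13, adjusted p = 0.00354) and stayed under the fold-change threshold. miR-889-3p, in an intron of MEG9 from 101514238 to 101514316, had 252 and 356 (24 h) and 823 and 810 (96 h) counts and 1.002 (SE 0.18, adjusted p = 0.00878), just past the threshold. These calls sit in a broad shift of the cluster: 50 of its 53 tested miRNAs had a late log2-fold change above 0, with a median of 0.66, against 46.6% and −0.05 over all tested miRNAs. Both 96 h libraries were above both 24 h libraries for 42 of the 53, and below for 0, against 30.3% and 31.6% over all tested miRNAs. An adjusted p under 0.05 was reached by 17 (32.1%, against 12.6% over all tested miRNAs), of which 3 were called (5.66%, against 5.91%). The early step had a median of 0.66 as well. The median of the late step was 0.22 under total counts, where that of all tested miRNAs was −0.49. Neighbours on one transcript and strands of one precursor are not independent.

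**Figure D2:**
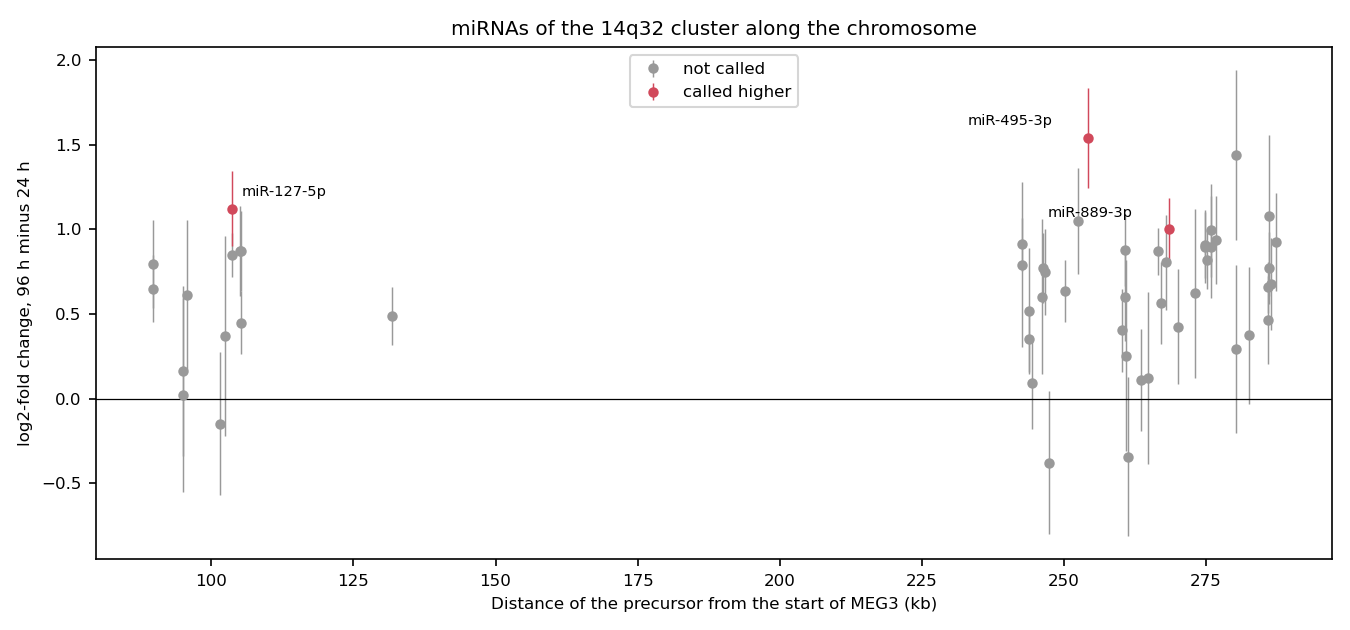
Late log2-fold change of the 53 tested miRNAs of the 14q32 cluster (vertical axis, bars are standard errors) against the distance of the precursor from the start of MEG3 in kb (horizontal axis). The 3 called miRNAs are in red, and 50 of the 53 points lie above 0.

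Of the miRNAs that fell, miR-29b-3p was the most abundant and took the largest share of reads. Its precursors MIR29B1, an exonic part of LINC-PINT (chromosome 7, 130562218 to 130562298), and MIR29B2, an exonic part of MIR29B2CHG (chromosome 1, 207975788 to 207975868), give the same mature strand. It had 26171 and 18089 (24 h) and 12858 and 12259 (96 h) counts and fell from 7640 ± 2976 to 3122 ± 288 CPM, or log2 −1.29 (SE 0.31, adjusted p = 0.0245). Its 2 libraries at 24 h stood at 9744 and 5536 CPM, and both lay above both 96 h libraries. When each of the 4 libraries was left out in turn, the change ran from −1.56 to −0.82. It kept its call without 24 h replicate 2 and lost it without any of the other 3, with −0.82 (adjusted p = 0.305) without 24 h replicate 1. Its seed mates gave −0.36 (SE 0.25, adjusted p = 0.377) for miR-29a-3p, whose time points overlapped, and −0.98 (SE 0.32, adjusted p = 0.0645) for miR-29c-3p, whose time points did not. The other strands of the 2 precursors, miR-29b-1-5p and miR-29b-2-5p, gave −0.75 and −1.78 (adjusted p = 0.329 and 0.132). When single libraries were left out, miR-29a-3p ran from −0.57 to −0.05 and miR-29c-3p from −1.19 to −0.63. In the same fits miR-29b-1-5p ran from −1.40 to −0.24 and miR-29b-2-5p from −2.14 to −1.41. Whether the members of the family differ from each other was not tested.

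miR-33b-5p, in an intron of SREBF1 on chromosome 17 between 17717150 and 17717245, is known for its targets in cholesterol export. It had 24 and 27 (24 h) and 3 and 12 (96 h) counts and the largest fitted fall of the 29, −2.17 (SE 0.61, adjusted p = 0.0429). This value ran from −3.51 to −1.33 when single libraries were left out, with the smallest fall in the fit without 96 h replicate 1, and the call held in 1 of these 4 fits, the one without 96 h replicate 2. Summing the counts of all precursor entries also ended the call. The related miR-33a-5p, with 11 and 17 counts at 24 h and 5 and 6 at 96 h, gave −1.75 (adjusted p = 0.0645), and the other strand miR-33b-3p gave −1.25 (adjusted p = 0.0648), so that neither was called.

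miR-4521, on chromosome 17 from 8090263 to 8090322, had 275 and 420 (24 h) and 159 and 116 (96 h) counts and fell from 115 ± 18.5 to 33.8 ± 3.26 CPM, or log2 −1.77 (SE 0.19, adjusted p = 0.000252), the smallest adjusted p among the fallers. The level at 0 h was 177 ± 8.58 CPM, so the time points followed one direction, although the early step of −0.61 was not called. miR-138-5p, from MIR138-1 on chromosome 3 between 44155704 and 44155802 and MIR138-2 on chromosome 16 between 56892430 and 56892513, had 489 and 467 (24 h) and 325 and 312 (96 h) counts. It fell from 162 ± 27.7 to 79.2 ± 7.70 CPM, or log2 −1.04 (SE 0.23, adjusted p = 0.0224). With single libraries left out, its change ran from −1.12 to −0.85, on both sides of the fold-change threshold. The tested other strand miR-138-1-3p gave −0.05 (adjusted p = 0.980). miR-362-5p, in an intron of CLCN5 on chromosome X between 49773572 and 49773636, had 169 and 136 (24 h) and 87 and 102 (96 h) counts. Its log2-fold change was −1.14 (SE 0.30, adjusted p = 0.0314), and leaving out single libraries moved it between −1.33 and −0.81. The other strand miR-362-3p gave −0.92 (adjusted p = 0.377).

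miR-92b-5p, the less abundant strand of MIR92B on chromosome 1 between 155164968 and 155165063, had 94 and 94 (24 h) and 76 and 51 (96 h) counts and a log2-fold change of −1.03 (SE 0.23, adjusted p = 0.0224). Its partner miR-92b-3p moved by −0.59 (SE 0.14, adjusted p = 0.0245), in the same direction and under the fold-change threshold. miR-3912-3p, on chromosome 5 between 170813660 and 170813764, had 74 and 89 (24 h) and 46 and 58 (96 h) counts. Its log2-fold change was −1.07 (SE 0.27, adjusted p = 0.0288), and −1.31 to −0.74 when single libraries were left out. With every library thinned to the smallest total, miR-3912-3p was at −0.94 and was not called. It was the 1 faller also called at 24 h, with an early step of −1.0004. The remaining low fallers were miR-7973, with 34 and 26 (24 h) and 13 and 9 (96 h) and a log2-fold change of −1.90, and miR-4455, with 20 and 28 (24 h) and 8 and 8 (96 h) and −1.999. The hairpins of miR-7973 match both strands of chromosome 15 between 51606229 and 51606306, where the reverse strand is an intron of CYP19A1, and miR-4455 lies on chromosome 4 between 185859537 and 185859594. No position is given here for miR-3195, miR-6747, and miR-6087.

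Both strands of MIR486, a miRNA known from red blood cells and muscle, fell together. Its precursor lies on chromosome 8 from 41517959 to 41518026, within the bounds of ANK1. miR-486-5p had 221 and 233 (24 h) and 125 and 128 (96 h) counts and went from 76.8 ± 7.76 to 31.6 ± 4.49 CPM, or log2 −1.28 (SE 0.19, adjusted p = 0.00313). miR-486-3p had 43 and 46 (24 h) and 18 and 14 (96 h) counts and gave −1.92 (SE 0.30, adjusted p = 0.00354). Of 8 blood cell miRNAs, miR-486-5p was the 1 that passed the filter, and miR-223-3p and miR-150-5p were at 0 in these 4 libraries.

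**Figure D3:**
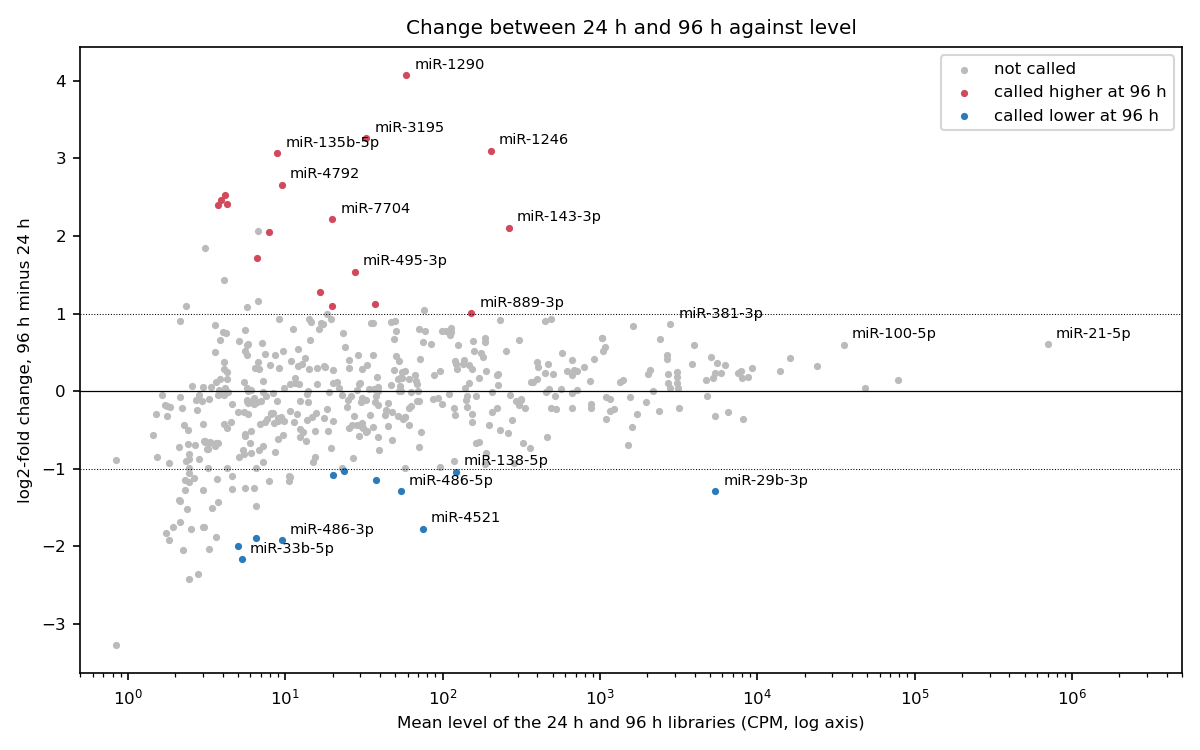
Late log2-fold change (vertical axis) of the 491 tested miRNAs against their mean level over the 24 h and 96 h libraries in CPM (horizontal log axis); dotted lines mark the fold-change threshold. Called miRNAs are in red (18 higher) and blue (11 lower); of the 152 miRNAs at 100 CPM or more, 3 were called higher and 2 lower.

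The changes touched a small part of the reads. Together the 18 risers took 0.0344% and 0.0354% of the reads at 24 h against 0.103% and 0.114% at 96 h. The 11 fallers went from 1.08% and 0.611% to 0.230% and 0.281%. Of these, miR-29b-3p alone took 1.03% and 0.563% at 24 h and 0.215% and 0.263% at 96 h. By level, 8 risers and 4 fallers came from the 177 tested miRNAs under 10 CPM, 7 and 5 from the 162 between 10 and 100 CPM, and 3 and 2 from the 152 above that. The largest gain of read share belonged to miR-21-5p, which gained 7.17 percentage points over the late step and was not called, with a log2-fold change of 0.61 (adjusted p = 0.0516). Under total counts its log2-fold change was 0.17, and it was not called there either. The next gains were those of miR-100-5p, miR-381-3p, miR-181a-5p, and miR-127-3p, at 0.353, 0.0710, 0.0400, and 0.0396 points. The largest losses were those of let-7i-5p, miR-27b-3p, miR-29b-3p, miR-29a-3p, and miR-24-3p, which fell by 1.45, 1.21, 0.556, 0.399, and 0.286 points. In the fit with TMM, let-7i-5p and miR-27b-3p had log2-fold changes of 0.14 and 0.04, against −0.30 and −0.40 under total counts. Shares sum to a fixed total, and reads of different miRNAs also depend on how well each is ligated and amplified.

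Short mature miRNAs were frequent among the risers. A length of at most 19 bases was found for 6 of the 14 risers with a sequence (42.9%; miR-4516 among the 6 and miR-135b-5p, miR-145-5p, and miR-4762-3p among the others passed the filter only with the 96 h libraries), 1 of the 9 fallers (11.1%), and 21 of all 434 tested miRNAs with a sequence (4.84%). This limit was chosen after the values had been seen. The 21 short miRNAs did not move as a block: their late log2-fold changes ran from −1.999 for miR-4455 to 4.07 for miR-1290. Their median was 0.10, against −0.03 for the 413 longer ones. The order of these medians turned without 24 h replicate 2 (−0.14 against 0.07). It also turned when every library was thinned to the smallest total (−0.30 against −0.02). Among the 12 short miRNAs whose mean reached 10 CPM, 4 were called higher, which are miR-1290, miR-1246, miR-7704, and miR-4443 (33.3%), and 0 lower, against 5 called higher of 272 longer ones at that level (1.84%). Over all tested miRNAs 3.67% were called higher. The mean is over the 24 h and 96 h libraries, so a rise itself helps to reach it. At 24 h miR-1290 and miR-7704 stood at 6.63 and 6.99 CPM, and miR-1246 and miR-4443 at 42.2 and 12.5. Of the longer ones called higher, miR-944 stood at 9.78 CPM at 24 h. Nothing is therefore read from the shares at that level. In a list of 8 entries that resemble fragments of structural RNA, 6 were tested, 2 were called higher (33.3%), and the median was −0.52. These 2 are miR-1246 and miR-6087, of which the latter passed the filter only with the 96 h libraries and was called in 0 of the 4 fits that leave out 1 library. The other 4, which include miR-1260a and miR-1260b at −0.50 and −0.53, were not called.

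**Figure D4:**
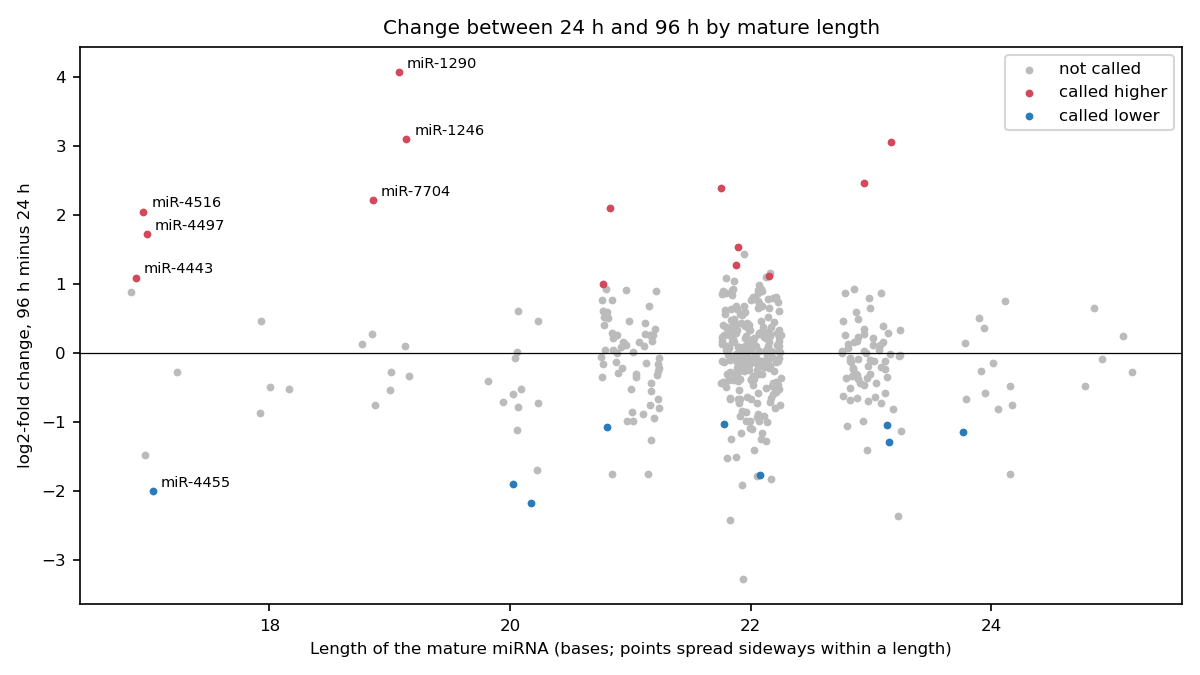
Late log2-fold change (vertical axis) against the length of the mature miRNA in bases (horizontal axis) for the 434 tested miRNAs with a sequence, with points spread sideways within a length. The called miRNAs of at most 19 bases are named: 6 of them lie above 0 and miR-4455 below.

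The late step was also set beside the early step of the same miRNAs. Both steps use the 24 h libraries, so their values are not independent and are given side by side. Between 0 and 24 h, 17 of the 491 miRNAs (3.46%) were called, of which miR-143-3p, miR-3195, and miR-3912-3p are among the 29. Between 0 and 96 h, 127 miRNAs (25.9%) were called, with 16 of the 18 risers and 10 of the 11 fallers among them. That comparison shares the 96 h libraries with the late step on which the 29 were chosen, so nothing is read from the overlap. The median of the early step was 0.29 for the risers and −0.71 for the fallers. Their late medians, 2.31 and −1.29, are set by the choice of miRNAs on the late step, so nothing is read from the comparison. A test of the difference between the steps called 5 miRNAs (1.02%). The late step exceeded the early one by 3.94 for miR-1290 (adjusted p = 0.00815), by 3.43 for miR-1246 (adjusted p = 0.000666), and by 4.30 for miR-4792 (adjusted p = 0.0487). It fell short of the early one for miR-143-3p, with a difference of −2.11 (adjusted p = 0.00815); its larger step came first. The fifth was miR-7-5p, not one of the 29, which had 2320 and 2813 counts at 24 h, against 6937 and 8045 before and 5860 and 4180 after. Its early step was −1.52 and its late step 0.52, a difference of 2.03 (adjusted p = 0.00240). The number of such calls fell to 0 without 24 h replicate 1, 1 without its replicate 2, 3 when 96 h replicate 1 was left out, and 2 when its replicate 2 was.

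**Figure D5:**
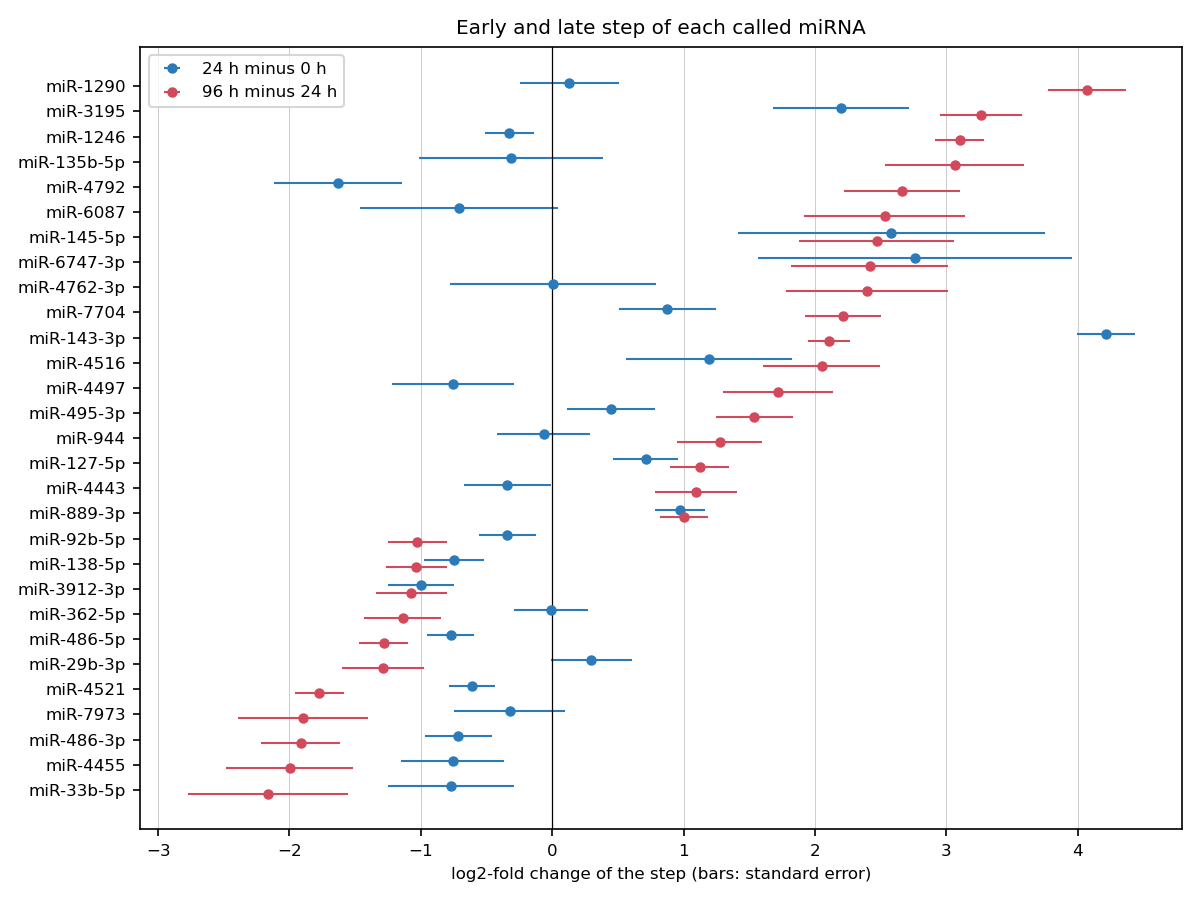
Log2-fold change of the early step (24 h minus 0 h, blue) and of the late step (96 h minus 24 h, red) for each of the 29 called miRNAs, with standard errors as bars. The early steps of miR-1290 and miR-1246 lie near 0 and their late steps above 3, while miR-143-3p has the larger step before 24 h.

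In 5 lists of miRNAs linked to the epithelial state, TGF-β, or proliferation, 2 of 41 tested members were called in the late step (4.88%), near the 5.91% over all tested miRNAs. Of the miR-200 family with miR-205 and miR-34, 8 of 9 members were tested and 0 were called, with a median of 0.01. Within it miR-200b-3p had 0.77 (adjusted p = 0.0275) and miR-34a-5p, a target of p53, had −0.73 (adjusted p = 0.0229). Both were under the fold-change threshold in this fit, while miR-34c-5p had −0.39 and miR-200a-3p 0.21. Under total counts miR-34a-5p was called, at −1.17. Leaving out single libraries moved miR-200b-3p between 0.60 and 1.06. The 3 members of the miR-183 cluster had a median of 0.36 and 0 calls, with miR-183-5p at 0.47 (adjusted p = 0.0401). Of 12 tested miRNAs linked to TGF-β or invasion, 2 were called, both higher, namely miR-143-3p and miR-145-5p, and the median was 0.35. Of these, miR-145-5p passed the filter only with the 96 h libraries and was called in 0 of the 4 fits that leave out 1 library. The 9 let-7 guide strands and the 9 guide strands of miR-17-92 and miR-106b-25 gave 0 calls each, with medians of 0.22 and −0.11. Without a minimum fold change, 62 miRNAs had an adjusted p under 0.05, 44 higher and 18 lower. An unadjusted p under 0.05 was reached by 152. The called miRNAs nearest to the fold-change threshold were miR-889-3p at 1.002, miR-92b-5p at −1.03, and miR-138-5p at −1.04. Those just outside it were miR-485-3p at 0.99, miR-590-3p at −0.98, and miR-323b-3p at 0.94. The value of miR-590-3p was −0.50 without 24 h replicate 1, −1.26 without 24 h replicate 2, and −1.42 under total counts.

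The fits were repeated without each of the 4 libraries. Such a fit leaves 1 library at a time point, which is assumed to vary like those of the other groups, and has fewer degrees of freedom. The direction of the 29 was nearly fixed in advance here, since both 96 h libraries of each lay on one side of both 24 h libraries. Of the 29, 9 were still called when 24 h replicate 1 was left out, 14 on omission of 24 h replicate 2, 9 on omission of 96 h replicate 1, and 12 on omission of 96 h replicate 2, and all 29 kept their direction each time. Called in all 4 of these fits were miR-1290, miR-3195, miR-1246, miR-4792, miR-7704, and miR-143-3p among the risers and miR-4521 and miR-486-3p among the fallers. After every library had been thinned to the depth of the shallowest, 19 of the 28 that could still be tested were called. Each library was sequenced in 2 runs, and the second runs of both 24 h libraries share one date and those of both 96 h libraries another, so that this date and the time point cannot be told apart in the summed counts. The normalized values gave back single runs for 3 of the 4 libraries. Over 8 combinations of single runs, scaled by run totals, the direction was the same in all 8 for 28 of the 29. The exception was miR-944, which ran from −0.04 to 0.76 on that scale.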

How the data were processed

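The authors deposited counts, whole reads per mature miRNA and precursor entry that were assigned with miRDeep2, already summed over the 2 runs of a library; hg19 is the build in the submitters' processing notes. The authors also deposited normalized values, a signal that adds up the runs of a library after scaling each to the same total. They served here to recover single runs. There, 1 column repeats another and was not used. Of 2822 entries for 2588 mature names, the entry with the highest total was kept for each name. Counts were tested with edgeR 4.0.16 in R 4.3.3 (TMM, filterByExpr with a minimum count of 10, quasi-likelihood F-test over all 6 libraries, Benjamini-Hochberg adjustment over 491 miRNAs), which was tested on simulated data. Calls needed an adjusted p under 0.05 with a log2-fold change beyond 1 or −1. The standard error (SE) is the absolute value of the log2-fold change divided by the square root of F. All called miRNAs are named, with the 3 nearest to the threshold on each side, tested other strands, up to 4 members of each list, and the 5 largest gains and losses of share. The members and lists were chosen with earlier results of these data known. DESeq2 1.42.0 served as an alternative. Positions are those of GENCODE on GRCh37 by name or by exact match of the hairpin, found for 471 of the tested miRNAs, and RefSeq sequences matched 434 of them. Figures were drawn with Python 3.11.15, pandas 2.3.3, numpy 2.4.6, and matplotlib 3.10.9.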

Additional observations from a re-analysis of the deposited data

How the results depend on the processing

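The 29 miRNAs kept their direction in every fit in which they were tested, and 28 of them in all combinations of single runs, with miR-944 as the exception. In the fits this was nearly fixed by their selection, since the 24 h and 96 h libraries of each did not overlap. Total counts gave 72 calls (14 higher, 58 lower) and total counts without miR-21-5p 19 lower calls; 25 of the 29 remained called under each. Without the expression filter 46 were called (20 lower), with a mean of at least 10 CPM 17 (8 higher), and with only the 24 h and 96 h libraries 44 (21 lower), where 28 of the 29 remained. Without a minimum fold change 62 were called, 44 higher and 18 lower. Leaving out each library in turn gave 9 to 22 calls, 7 to 15 higher and 2 to 7 lower. The fit with a replicate block called 41, 20 of them lower, and all 29 remained. The deviations of libraries with the same number correlated at −0.364 between 24 and 96 h, −0.476 between 0 and 24 h, and 0.494 between 0 and 96 h. Each rests on a single difference between libraries per time point, so whether the numbers pair the libraries cannot be told. The crossed replicate block, chosen after seeing the data, gave 22 lower calls. The test of the late step against the early step called 5, and 10 without the filter, 10 with the crossed replicate block, and 0 to 3 without single libraries. The causes were not tested. DESeq2's Wald test kept 27 of the 29, as did its size factors within edgeR, which ended the calls of miR-92b-5p and miR-138-5p. The alternative restricted to runs of one shared date was not run, since the tables do not say which run has which date; combinations of single runs were added after seeing the data.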
